A study of Mus musculus with 24 samples.

Results

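The glucocorticoid receptor gene Nr3c1 and 9 of its classical target genes (Fkbp5, Tsc22d3, Dusp1, Sgk1, Klf9, Zbtb16, Mt1, Mt2 and Hsd11b1) were followed in differentiated mouse embryonic stem (ES) cells after dexamethasone, a synthetic glucocorticoid. They were picked by symbol from a table of exon RPKM, a level per kilobase of exon, scaled to the size of the library. The 10 genes are 10 of the 33079 in the table, each on 1 line of it, and all 10 passed the filter on low values that left 15112 genes for testing. WT cells were control Per2::Luciferase knock-in ES cells, and KO cells were ES cells with the same knock-in in which CRISPR/Cas9 had deleted exons of Rev-erbα and Rev-erbβ, the Rev-erbα gene having been targeted in a line that already lacked Rev-erbβ.

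Both lines were grown as embryoid bodies for 2 days, then plated for 26 days, and received 100 nM dexamethasone at day 28. Cells were frozen at intervals of 4 h, the first at 12 h and the last at 56 h. Each genotype and time point gave 1 library from the pooled RNA of 3 embryoid bodies, so that there were 12 WT and 12 KO libraries and no replicate within a time point. Every library was treated and none was collected before 12 h. The rise that dexamethasone itself causes was therefore not measured, and each value is a level at some hour after the hormone. KO cells come from a picked line, so a genotype difference and a difference between cell lines cannot be told apart. In these mixed cultures, fewer cells of a type and less RNA per cell cannot be told apart either.

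The fragments counted on exons ranged from 6183500.5 to 10287969 per library, and each library correlated with the median of its own group at r of 0.986 to 0.996. The deleted exons are only some of those counted, so the levels of Nr1d1 (Rev-erbα) and Nr1d2 (Rev-erbβ) do not check the deletion: mean Nr1d1 was 5.04 and 6.39 RPKM in WT and KO, and mean Nr1d2 was 1.85 and 3.22 RPKM. Arntl (Bmal1), a gene that REV-ERBs repress, had a mean of 3.55 ± 0.55 and 4.72 ± 0.39 RPKM in WT and KO (SD, n = 12 each). The pluripotency markers summed to between 0.132 and 5.79 RPKM per library. The 6 mesenchymal markers, collagens and decorin among them, summed to between 2410 and 3003 RPKM.

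Glucocorticoids enter the cell and bind the receptor, which is held in the cytoplasm by heat shock proteins and immunophilins. The occupied receptor moves to the nucleus, binds palindromic DNA elements and raises genes such as those of the immunophilin FKBP51, which in turn lowers the receptor's affinity for hormone, and of GILZ and DUSP1, which damp inflammatory signalling. The enzyme 11β-HSD1 (Hsd11b1) regenerates active glucocorticoid from its inert form in the cell. REV-ERBα and REV-ERBβ are nuclear receptors that repress genes of the circadian clock and of metabolism, and dexamethasone is used on cultured cells to set their clocks to a common phase.

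RefSeq windows (GRCm38) around the annotated starts, from 250 bases before to 50 bases after, were at hand for 8 of the 10 genes, 15 windows in all. None was at hand for Nr3c1 or Zbtb16. The glucocorticoid half-site AGAACA (or TGTTCT on the other strand) stood in 19% of the 32851 windows of all genes, and the full palindrome of AGAACA and TGTTCT with 3 bases between them in 3 windows, or 0.009%. One of those 3 belonged to Sgk1, at a start inside the gene. It is shown because it holds the complete element, in capitals, 189 bases before that start, at chr10:21993640-21993939 on the plus strand. The capitals cover 2 of its 3 half-site matches, and the third overlaps the E-box CACGTG near its left end.

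Sgk1: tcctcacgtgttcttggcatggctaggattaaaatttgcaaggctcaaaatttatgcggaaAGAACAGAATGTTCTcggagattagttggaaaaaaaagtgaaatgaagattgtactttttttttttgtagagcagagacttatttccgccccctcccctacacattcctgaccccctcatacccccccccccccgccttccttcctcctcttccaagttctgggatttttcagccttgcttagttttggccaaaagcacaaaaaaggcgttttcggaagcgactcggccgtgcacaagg

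Tsc22d3, which stood highest at 12 h in both genotypes, had 3 windows. The one shown, at chrX:140600473-140600772 on the minus strand, was the only one of them with a glucocorticoid half-site. It held a single half-site, in capitals.

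Tsc22d3: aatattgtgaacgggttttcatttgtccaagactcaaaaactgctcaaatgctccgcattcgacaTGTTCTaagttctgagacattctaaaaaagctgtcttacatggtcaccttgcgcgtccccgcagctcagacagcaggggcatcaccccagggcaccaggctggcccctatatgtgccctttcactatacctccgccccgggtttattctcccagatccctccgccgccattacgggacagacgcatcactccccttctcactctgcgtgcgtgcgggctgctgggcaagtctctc

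The windows of the metallothionein genes are shown because the 2 genes are neighbours and their levels moved together. Capitals mark the core of the metal response element (TGCACNC or TGCGCNC, both strands), which stood in 25.7% of all windows. Mt1, at chr8:94178839-94179138 on the plus strand, held 3 matches and Mt2, at chr8:94172368-94172667 on the plus strand, held 4. Neither held a glucocorticoid half-site in these 300 bases.

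Mt1: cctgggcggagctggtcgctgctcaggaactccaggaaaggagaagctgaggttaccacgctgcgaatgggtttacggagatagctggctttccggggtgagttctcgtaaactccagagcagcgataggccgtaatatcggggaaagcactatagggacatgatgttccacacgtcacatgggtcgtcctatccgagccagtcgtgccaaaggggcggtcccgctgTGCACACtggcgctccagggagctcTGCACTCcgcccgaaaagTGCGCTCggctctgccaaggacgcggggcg
Mt2: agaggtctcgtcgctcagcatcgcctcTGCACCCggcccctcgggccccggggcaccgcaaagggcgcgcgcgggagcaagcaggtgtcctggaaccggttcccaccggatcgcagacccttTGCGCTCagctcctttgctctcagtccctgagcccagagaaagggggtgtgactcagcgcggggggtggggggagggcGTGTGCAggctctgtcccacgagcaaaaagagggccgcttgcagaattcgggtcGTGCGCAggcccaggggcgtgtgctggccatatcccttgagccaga

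Among the other windows, that of Fkbp5 held 1 E-box, found in 7.15% of all windows. The Dusp1 window held 1 E-box, 1 metal response core and 1 cyclic AMP element (TGACGTCA), the last found in 1.79% of all windows. The Klf9 window held no match to any motif searched. At Sgk1, the windows at chr10:21881934-21882233 and chr10:21991973-21992272 held 1 glucocorticoid half-site each. Apart from these and the Sgk1 and Tsc22d3 windows shown, none of the 15 held one. The half-site AGGTCA, which REV-ERBs bind in an extended form, stood in 16.3% of all windows and in 2 of the 15, both at inner starts of Sgk1. A match is a string of letters and not a measured binding site.

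Nr3c1, the gene of the receptor, varied little, its highest library standing at 1.27 times the lowest in WT and at 1.37 times in KO. It lies at chr18:39410545-39487245 on the minus strand. It ranged in WT from 6.53 RPKM at 20 h through a median of 7.30 to 8.31 RPKM at 48 h. In KO it ranged from 5.91 RPKM at 36 h through a median of 7.28 to 8.08 RPKM at 28 h. The 2 genotypes overlapped, with KO the higher at 4 of 12 time points. The difference, KO minus WT, was −0.04 ± 0.04 on the log2(RPKM + 0.1) scale (SE, limma adjusted p = 0.585), with a 95% interval of the fold from 0.917 to 1.04. Its fitted change from 12 to 56 h was 0.03 ± 0.07 on the same scale (adjusted p = 0.876).

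**Figure D1:**
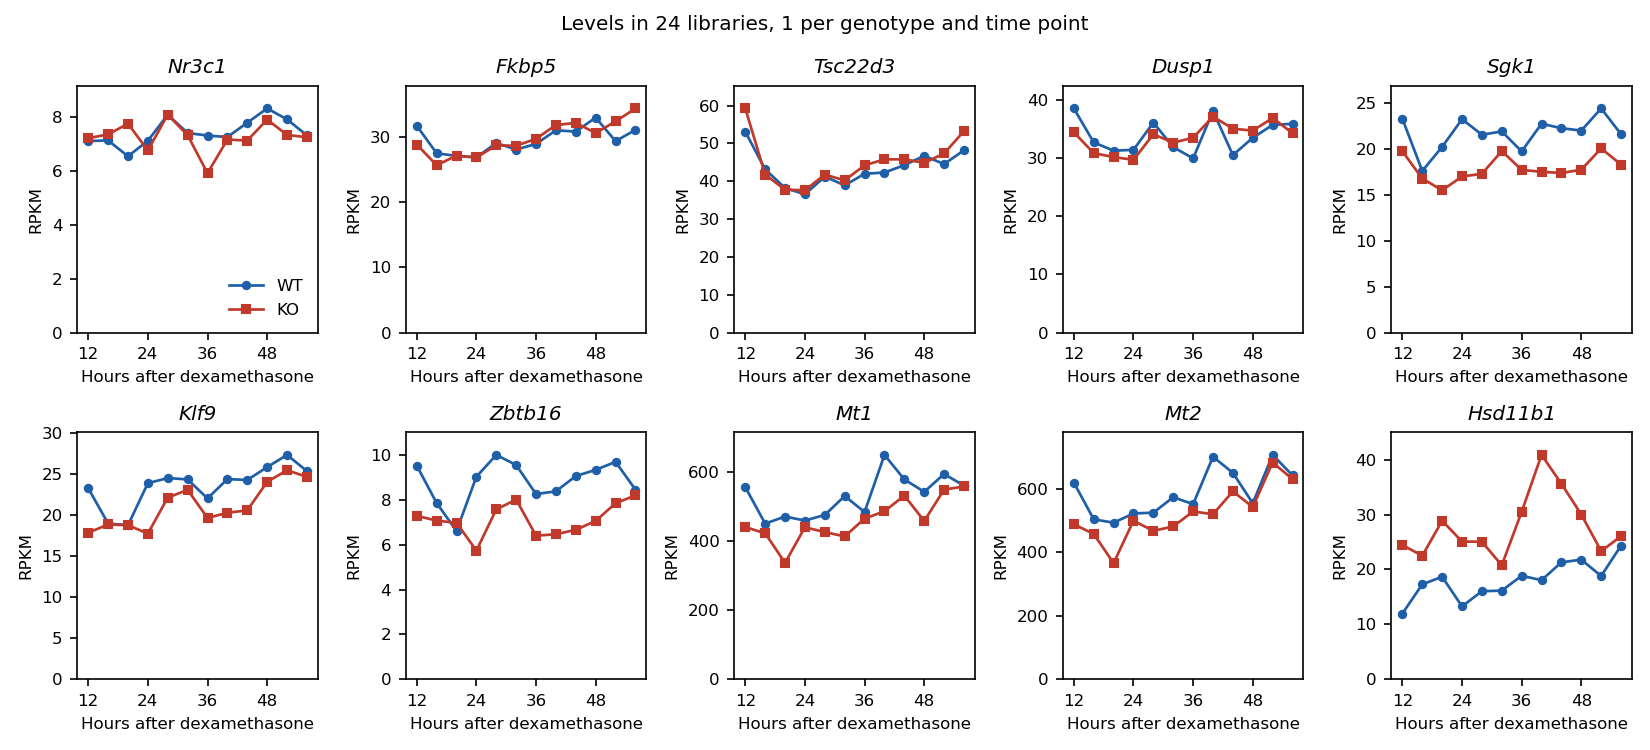
RPKM (y axis, from 0) of the 10 genes against hours after dexamethasone (x axis), with 1 point for each WT (blue circles) and KO (red squares) library. Hsd11b1 stood above WT at 12 of 12 time points in KO and Sgk1 below at 12 of 12, while the lines of Nr3c1, Fkbp5, Tsc22d3 and Dusp1 crossed.

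Fkbp5 encodes FKBP51, the immunophilin of the receptor's negative feedback, and lies at chr17:28398753-28486149 on the minus strand. Its WT libraries ranged from 26.9 RPKM at 24 h through a median of 29.2 to 33.0 RPKM at 48 h, and its KO libraries from 25.7 RPKM at 16 h through a median of 29.3 to 34.4 RPKM at 56 h. The genotypes overlapped over almost the whole range and differed by 0.01 ± 0.05 log2 (adjusted p = 0.919, 95% interval of the fold 0.941 to 1.07). With time the level rose in both: the first 6 time points averaged 28.4 and 27.7 RPKM in WT and KO, and the last 6 averaged 30.7 and 31.9 RPKM. The common fitted rise over 44 h was 0.27 ± 0.06 log2, or 1.20-fold (adjusted p = 0.00648).

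Tsc22d3 encodes GILZ, a leucine zipper protein through which glucocorticoids restrain inflammatory transcription, and lies at chrX:140539529-140600522 on the minus strand. It stood highest at the first time point in both genotypes, at 53.1 and 59.2 RPKM in WT and KO at 12 h. It was lowest at 24 h, at 36.6 and 37.6 RPKM in WT and KO, and by 56 h it stood at 48.2 and 53.3 RPKM. Its common linear course of 0.16 ± 0.11 log2 did not pass the test (adjusted p = 0.411). Without the 12 h libraries the same course was 0.39 log2 with an adjusted p of 0.00118, in a range of 0.00118 to 0.669 over the 12 fits that each left out 1 time point. KO was higher at 9 of 12 time points, with medians of 42.7 and 44.5 RPKM in WT and KO, and the difference was 0.05 ± 0.07 log2 (adjusted p = 0.619, 95% interval of the fold 0.939 to 1.14).

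Dusp1 encodes a phosphatase that switches off MAP kinases and lies at chr17:26505591-26508472 on the minus strand. In WT it ranged from 30.0 RPKM at 36 h through a median of 33.1 to 38.6 RPKM at 12 h, and in KO from 29.7 RPKM at 24 h through 34.2 to 37.1 RPKM at 40 h. Neither the genotype difference (−0.01 ± 0.05 log2, adjusted p = 0.941, 95% interval of the fold 0.931 to 1.07) nor the course (0.12 ± 0.08 log2, adjusted p = 0.423) passed the test.

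Sgk1, a kinase gene that glucocorticoids and mineralocorticoids induce and whose product controls ion transport (chr10:21882184-21999902, plus strand), was lower in KO. The WT libraries ranged from 17.6 RPKM at 16 h through a median of 22 to 24.5 RPKM at 52 h, and the KO libraries from 15.5 RPKM at 20 h through 17.6 to 20.1 RPKM at 52 h. KO lay lower at 12 of 12 time points, with 6 KO libraries below every WT library, and the ratio of KO to WT at a time point lay between 0.732 and 0.953. The difference was −0.28 ± 0.05 log2, a fold of 0.826 (adjusted p = 0.000230, 95% interval 0.771 to 0.885). Its common course was 0.06 ± 0.08 log2 and did not pass the test (adjusted p = 0.686).

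Klf9 encodes a Krüppel-like repressor that glucocorticoids induce in many tissues, and lies at chr19:23141226-23166911 on the plus strand. It ranged in WT from 18.8 RPKM at 20 h through a median of 24.3 to 27.3 RPKM at 52 h, and in KO from 17.8 RPKM at 24 h through 20.4 to 25.5 RPKM at 52 h. KO was the lower at 12 of 12 time points, with ratios of KO to WT between 0.743 and 0.9999, and 3 KO libraries lay below every WT library. The difference of −0.16 ± 0.07 log2 did not pass the test (adjusted p = 0.0859, 95% interval of the fold 0.809 to 0.986), and it passed where the course or the time point was a term of the fit (adjusted p = 0.00347 and 0.0110, in a range of 0.00347 to 0.121 over 8 alternatives). The level rose over the course by 0.32 ± 0.07 log2, or 1.25-fold (adjusted p = 0.00496).

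Zbtb16 encodes the zinc finger repressor PLZF and lies at chr9:48654297-48835945 on the minus strand. KO stood below WT at 11 of 12 time points, all but 20 h. WT ranged from 6.62 RPKM at 20 h through a median of 9.05 to 10.01 RPKM at 28 h, and KO from 5.74 RPKM at 24 h through 7.07 to 8.21 RPKM at 56 h. The difference was −0.31 ± 0.06 log2, a fold of 0.809 (adjusted p = 0.00103, 95% interval 0.740 to 0.885). Its course was 0.03 ± 0.09 log2 (adjusted p = 0.887).

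Mt1 and Mt2 encode metallothioneins, small cysteine-rich proteins that bind zinc and copper and are induced by both metals and glucocorticoids. Mt1 (chr8:94179089-94180327) and Mt2 (chr8:94172618-94173567) both lie on the plus strand, and whether reads that fit both paralogs were lost or split between them was not tested. Mt1 ranged in WT from 450 RPKM at 16 h through a median of 536 to 648 RPKM at 40 h, and in KO from 336 RPKM at 20 h through 448 to 557 RPKM at 56 h. Mt2 ranged in WT from 493 RPKM at 20 h through a median of 564 to 707 RPKM at 52 h, and in KO from 366 RPKM at 20 h through 510 to 683 RPKM at 52 h. Both were lower in KO at 12 of 12 time points, and their ranges overlapped, with 6 KO libraries of Mt1 and 5 of Mt2 below every WT library.

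The KO minus WT difference was −0.20 ± 0.07 log2 for Mt1, a fold of 0.868 (adjusted p = 0.0437), and −0.18 ± 0.08 log2 for Mt2, a fold of 0.884 (adjusted p = 0.118). With the time point as a block both were called, Mt1 at an adjusted p of 0.00575 and Mt2 at 0.00978, and over the 8 alternatives with all libraries the adjusted p ran from 0.00132 to 0.0638 for Mt1 and from 0.00978 to 0.163 for Mt2. Without the block the Mt1 call was lost in 9 of the 12 fits without 1 time point (all but those without 16, 52 or 56 h), and the adjusted p of the 12 ran from 0.0343 to 0.0866. Both genes rose with time, Mt1 by 0.44 ± 0.09 log2 or 1.36-fold (adjusted p = 0.00496) and Mt2 by 0.48 ± 0.10 log2 or 1.40-fold (adjusted p = 0.00485). The ratio of Mt2 to Mt1 was 1.11 ± 0.05 in WT and 1.13 ± 0.05 in KO (SD, n = 12 each), and it stayed between 1.02 and 1.25 in the 24 libraries.

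Hsd11b1 was the 1 gene of the 10 called higher in KO. It encodes 11β-hydroxysteroid dehydrogenase type 1 and lies at chr1:193221641-193264045 on the minus strand. In WT it ranged from 11.9 RPKM at 12 h through a median of 18.4 to 24.4 RPKM at 56 h. In KO it ranged from 20.8 RPKM at 32 h through a median of 25.6 to 40.9 RPKM at 40 h. At 12 of 12 time points KO stood above WT, and 9 KO libraries lay above every WT library. The ratio of KO to WT ran from 1.07 at 56 h to 2.27 at 40 h. The difference was 0.62 ± 0.11 log2, or 1.54-fold (adjusted p = 0.000342, 95% interval 1.31 to 1.80). Hsd11b1 also had the largest fitted rise of the 10 over the course, 0.67 ± 0.13 log2 or 1.59-fold (adjusted p = 0.00310). The KO values did not follow a straight line: they stood at 24.5 RPKM at 12 h, 40.9 RPKM at 40 h and 26.1 RPKM at 56 h. Hsd11b1 had the highest coefficient of variation of the 10 over the libraries of a genotype, 19.4% in WT and 21.0% in KO, its course included.

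Over the 10 genes, 1 was called higher in KO and 3 lower (limma, adjusted p under 0.05 over all 15112 genes). Of all genes tested, 11.2% were called higher and 14.7% lower. With the time point as a block or with the course as a covariate, Klf9 and Mt2 were called lower too, which made 1 higher and 5 lower of the 10. The shares over all genes were then 12.1% higher and 15.8% lower with the block, and 13.3% and 16.6% with the covariate. The median difference of the 10 was −0.10 log2, beside −0.01 log2 over all genes. For the common course, 5 of the 10 were called higher and 0 lower, where 4.37% of all genes were called higher and 3.95% lower. The 10 were chosen with results of these data known, and neither the genotype counts nor the course counts were tested against this background. The median course was 0.22 log2 for the 10 and −0.002 log2 over all genes. All 10 estimates of the course lay above 0, and the 5 that did not pass the test ranged from 0.03 to 0.16 log2. On the means of WT and KO at each time point, 12 values a gene, Fkbp5, Mt1 and Mt2 missed the threshold (adjusted p = 0.0676, 0.0505 and 0.0620), and Klf9 missed it when the last 6 time points were set against the first 6 (0.0960). Their lowest adjusted p over the 10 alternatives that used every time point was between 0.000866 and 0.00334.

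**Figure D2:**
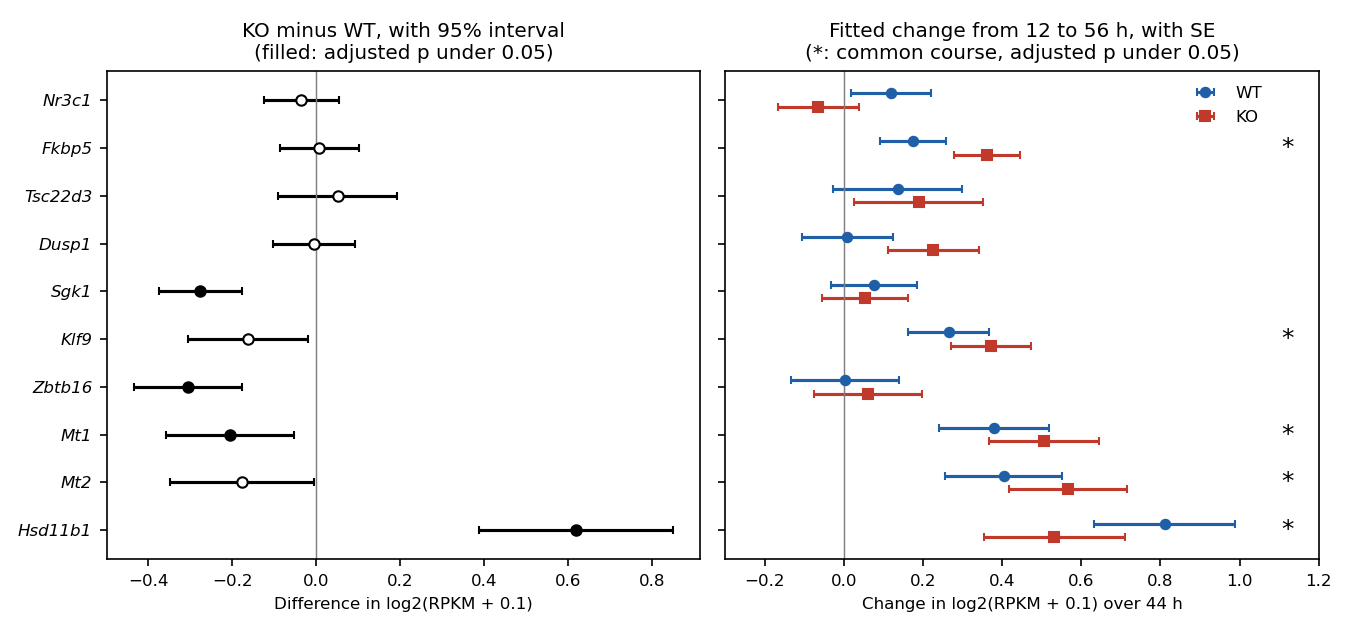
Left, KO minus WT difference in log2(RPKM + 0.1) of each gene with its 95% interval, filled where the adjusted p was under 0.05. Right, the fitted change over 44 h in WT (blue circles) and KO (red squares) with SE, and an asterisk where the course common to both passed the test, as it did for Fkbp5, Klf9, Mt1, Mt2 and Hsd11b1.

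Whether the course itself differed between the genotypes was tested by an interaction term. None of the 10 genes was called, as none of the 15112 was (0% higher and 0% lower), and the adjusted p of the 10 lay between 0.825 and 0.982. At an unadjusted p under 0.05, 0 of the 10 and 6.38% of all genes passed. The intervals are wide. For Fkbp5 the course was 0.18 ± 0.08 log2 in WT and 0.36 ± 0.08 log2 in KO, and the 95% interval of the difference ran from −0.06 to 0.43 log2. For Hsd11b1 the courses were 0.81 ± 0.18 and 0.53 ± 0.18 log2, with an interval of the difference from −0.81 to 0.25 log2. For Nr3c1 they were 0.12 ± 0.10 and −0.07 ± 0.10 log2, with an interval from −0.49 to 0.12 log2.

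A rhythm with a period of 24 h was fitted to each gene beside the straight line. It was called for 0 of the 10 genes and for 15 genes of all, or 0.0993%. At an unadjusted p under 0.05 it passed for 4 of the 10 and for 11.9% of all genes. These 4 were Hsd11b1, with an amplitude of 0.22 log2 (unadjusted p = 0.00382, limma adjusted p = 0.240), Klf9 with 0.10 log2 (0.00928, adjusted p = 0.295), Zbtb16 with 0.13 log2 (0.0136, adjusted p = 0.319) and Tsc22d3 with 0.12 log2 (0.0497, adjusted p = 0.419). The fitted peak of Klf9 lay at 4.93 h of the 24 h cycle in WT and 5.51 h in KO, counted from the addition of dexamethasone, and that of Hsd11b1 at 17.5 and 17.7 h. No difference in rhythm between genotypes was called, for the 10 or for any gene (0%). At an unadjusted p under 0.05 it passed for 0 of the 10 and for 4.82% of all genes.

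RPKM is per length, so levels can be set side by side between genes, but only roughly. Each gene has 1 exonic length, although Sgk1 and Tsc22d3 have several starts. Those of Mt1 and Mt2 are short, 539 and 553 bases, and reads that fit both were not examined. The effect of these points on the order was not tested. In WT the order of the mean levels was Mt2, Mt1, Tsc22d3, Dusp1, Fkbp5, Klf9, Sgk1, Hsd11b1, Zbtb16 and Nr3c1, from 587 to 7.43 RPKM. The ranges of neighbours in that order overlapped except at 2 steps, from Mt1 down to Tsc22d3 and from Hsd11b1 down to Zbtb16. In KO, Hsd11b1 stood sixth, above Klf9 and Sgk1, and Zbtb16 stood last at 7.11 RPKM, below Nr3c1 at 7.25 RPKM. These last 2 overlapped, with Nr3c1 the higher at 7 of 12 time points.

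Once the mean of each genotype was removed, 41 of the 45 pairs had a Pearson r above 0 over the 24 libraries, or 91.1%, with a median of 0.40. Over all 70466256 pairs of the 11872 genes with a mean of at least 1 RPKM, 53.5% had an r above 0 and the median was 0.03. The libraries of a course share their hours and are not independent, and the shared rise with time enters these values, so no p is given. All 10 estimates of that course lay above 0, and the 10 were chosen with results known. The highest r was that of Mt1 and Mt2 at 0.96 (0.94 within WT, 0.97 within KO), followed by Fkbp5 and Mt1 at 0.78 (0.71 and 0.83) and Klf9 and Zbtb16 at 0.75 (0.81 and 0.70). Nr3c1 followed Zbtb16 at 0.61 (0.76 within WT, 0.50 within KO). With Fkbp5 its r was only 0.18 over the 24 libraries, and the genotypes were unlike, at 0.53 within WT and −0.05 within KO. Hsd11b1 had the lowest values of all, −0.37 with Zbtb16 and −0.28 with Sgk1.

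Among 11862 other genes with a mean of at least 1 RPKM, those most like each of the 10 over the 24 libraries were named by the same measure. For Nr3c1 they were Luzp1 (r = 0.90) and Kmt2a (0.86), and for Klf9 they were Il6st (0.94), the shared receptor subunit of the interleukin-6 family, and Zfp36l2 (0.91). Zbtb16 was closest to Wwtr1 (0.90), which encodes TAZ, and Sntb2 (0.88). For Fkbp5 the closest were Fabp4 (0.85), a fatty acid carrier of adipocytes and macrophages, and Gnb5 (0.80). Tsc22d3 was closest to Glul (0.79), the glutamine synthetase gene and itself a glucocorticoid target, and Trem1 (0.75). For Dusp1 they were Csrnp1 (0.77) and AK158286 (0.73), and for Sgk1 they were Glud1 (0.81) and Gata6 (0.74). Mt1 and Mt2 shared Chil1 as the first (0.91 and 0.92), with the serpins Serpina3m (0.86) and Serpina3n (0.88) next. Hsd11b1 was closest to Jun (0.85) and Adss (0.85).

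**Figure D3:**
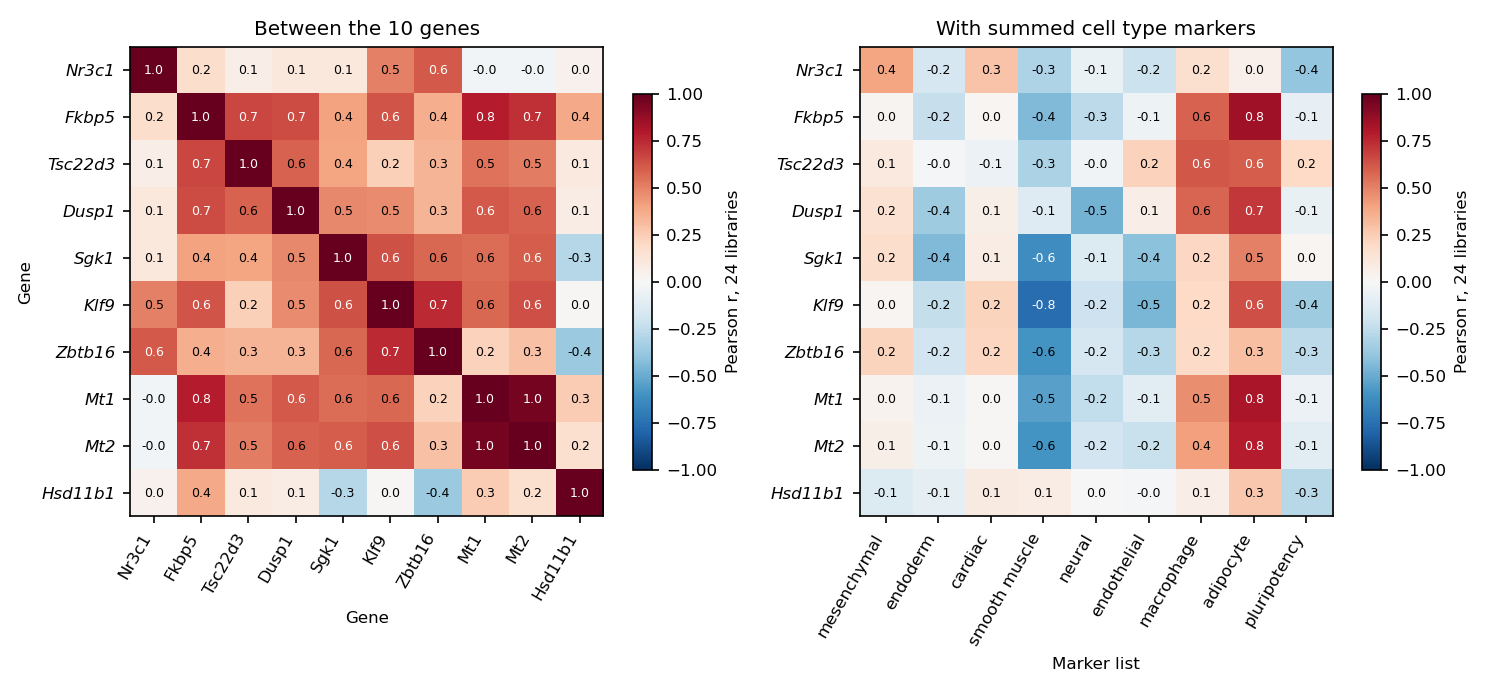
Pearson r over 24 libraries, after removal of genotype means, between the 10 genes (left) and of each gene with the summed level of 9 lists of cell type markers (right). Mt1 and Mt2 had the highest r between genes, 0.96, and Klf9 the lowest with the smooth muscle list, −0.76.

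Markers of cell types moved with some of these results. Their counts are to be read beside the 11.2% of all genes called higher and 14.7% called lower in KO. No marker list was tested against these shares. Of the 5 smooth muscle markers, 4 were called higher in KO and 0 lower (Des, Cnn1, Tagln and Myh11), and their summed level ran from 238 to 328 RPKM in WT and from 252 to 368 RPKM in KO. That sum went against the genes lower in KO over the 24 libraries, with r of −0.76 for Klf9, −0.62 for Sgk1, −0.60 for Zbtb16, −0.54 for Mt1 and −0.60 for Mt2. Its part in the lower levels of these genes in KO was not tested. Most of the sum came from Acta2, which was not called, with means of 158 and 167 RPKM in WT and KO. Tagln followed at 101 and 122 RPKM, so the r says little of Des, Cnn1 and Myh11. The r with this sum was also below 0 for the genes that showed no call between genotypes in any fit. It was −0.45 for Fkbp5, −0.32 for Tsc22d3, −0.31 for Nr3c1 and −0.13 for Dusp1. For Dusp1 the genotypes were unlike, at 0.14 within WT and −0.43 within KO. For Hsd11b1 it was 0.08 over the 24 libraries, but −0.38 within WT and 0.51 within KO. Of the 6 cardiac markers, 5 were called higher and 1 lower in KO, and of the 6 neural markers 0 were called higher and 2 lower. Of the 6 mesenchymal markers, the most abundant class, 3 were called higher (Thy1, Col1a1 and Col1a2) and 2 lower (Pdgfra and Lum), and their sum ran from 2410 to 2773 RPKM in WT and from 2445 to 3003 RPKM in KO. Pdgfra, a receptor gene of fibroblast-like cells, had a lower KO than WT level at each of the 12 time points and a fold of 0.798 (adjusted p = 0.00122). The r of the mesenchymal sum with Klf9, Sgk1, Zbtb16, Mt1 and Mt2 lay between 0.02 for Klf9 and 0.22 for Zbtb16. Of the 5 endothelial markers, 2 were called higher (Pecam1 by 1.65-fold and Emcn by 1.57-fold) and 0 lower, and their sum ran from 5.34 to 18.9 RPKM in WT and from 9.49 to 17.4 RPKM in KO. The r of that sum was −0.46 for Klf9, −0.41 for Sgk1, −0.29 for Zbtb16, −0.22 for Mt2 and −0.11 for Mt1. The part of these lists in the genotype differences was not tested.

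Of the 5 adipocyte markers, 2 passed the filter (Fabp4 and Pparg), and Fabp4 alone was called for the course. Fabp4, nearly all of the summed level of this list, rose by 0.66 ± 0.15 log2 over 44 h (adjusted p = 0.00756), and the sum ran from 68.3 to 114 RPKM in WT and from 66.7 to 128 RPKM in KO. Adipoq, Plin1 and Lep, which define adipocytes, had means below 0.1 RPKM in both genotypes. The r with this sum, in effect that with Fabp4, was 0.85 for Fkbp5, 0.82 for Mt1, 0.78 for Mt2, 0.71 for Dusp1 and 0.64 for Klf9, and its part in their course was not tested. Of the 5 macrophage markers, 2 were called higher over the course (Cd68 and Adgre1) and 0 lower, and the list median was −0.05 log2. The sum of the 5 stayed between 77.8 and 94.2 RPKM. The r with this sum ran from 0.06 for Hsd11b1 to 0.62 for Tsc22d3, with 0.59 for Fkbp5 and 0.58 for Dusp1. Its part in the course of these genes was not tested.

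The other genes of the pathway were taken from lists, whose counts are to be read beside the shares over all genes given above, 11.2% called higher and 14.7% lower in KO, and 4.37% and 3.95% for the course. These lists were chosen with results known, and no list was tested against those shares. Of 20 genes for the receptor's chaperones, cofactors and hormone metabolism, 2 were called higher in KO and 4 lower, with a median of −0.03 log2. The largest difference was in Hsd11b2, the enzyme that inactivates glucocorticoid and so opposes Hsd11b1. It had a mean of 5.50 ± 0.85 and 3.37 ± 0.54 RPKM in WT and KO (SD, n = 12 each), lower at 12 of 12 time points, a fold of 0.620 (adjusted p = 9.38e-06). H6pd, which supplies the cofactor for 11β-HSD1, was lower at a fold of 0.886 (adjusted p = 0.0195). The coactivator genes Ncoa2 and Crebbp were lower at folds of 0.923 and 0.891, and the cochaperone genes Stip1 and Ptges3 higher at 1.08-fold and 1.07-fold. None of the 20 was called for the course in either direction. Nr3c2, the mineralocorticoid receptor gene, had means of 0.165 and 0.172 RPKM.

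Of 32 other genes known to be induced by glucocorticoids, 30 passed the filter, and 7 of these (23.3%) were higher and 9 (30%) lower in KO, beside 11.2% and 14.7% of all genes, with a median of −0.06 log2. Cd163, a scavenger receptor of macrophages, stood at 0.447 and 0.948 RPKM in WT and KO, a fold of 1.99 (adjusted p = 0.000121), while of the 5 macrophage markers 1 was called higher (Adgre1) and 0 lower. Il1r2, the decoy receptor for interleukin-1, was higher by 1.53-fold, Anxa1 (annexin A1) by 1.18-fold and Errfi1 by 1.17-fold. Fam107a was lower at a fold of 0.535, Sesn1 at 0.790, Pdk4, the kinase that holds back pyruvate oxidation, at 0.813, Hif3a at 0.854, Foxo3 at 0.859 and Nedd9 at 0.928.

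For the course, 11 of these 30 (36.7%) were called higher and 4 (13.3%) lower, beside 4.37% and 3.95% of all genes, with a median of 0.17 log2. Lcn2, the acute-phase protein lipocalin-2, rose by 2.77-fold over 44 h, Plin4 by 1.85-fold, Cd163 by 1.81-fold, Il1r2 by 1.78-fold, Txnip by 1.48-fold, Errfi1 by 1.32-fold and Foxo1 by 1.23-fold. These folds are of the course common to both genotypes. Fitted by genotype, the course of Cd163 was 1.45 ± 0.30 log2 in WT and 0.26 ± 0.30 log2 in KO (SE). Its difference in course, KO minus WT, was −1.19 log2 and did not pass the test (limma adjusted p = 0.692, unadjusted p = 0.0121). Map3k6 fell to a fold of 0.770, Hif3a to 0.823 and Cdkn1c to 0.848.

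Of 16 genes known to be repressed by glucocorticoids, mostly cytokines, chemokines and proteases, 14 passed the filter. In KO 4 (28.6%) were higher and 0 lower, beside 11.2% and 14.7% of all genes, with a median of 0.17 log2. Cxcl5 was higher by 2.01-fold, Mmp3 by 1.56-fold, Ptgs2 (cyclooxygenase-2) by 1.41-fold and Lif by 1.28-fold, each at 12 of 12 time points. Over the course 4 (28.6%) rose and 0 fell, beside 4.37% and 3.95% of all genes, with a median of 0.28 log2: Mmp13 by 3.31-fold, Cxcl1 by 2.32-fold, Vcam1 by 1.23-fold and Icam1 by 1.21-fold.

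**Figure D4:**
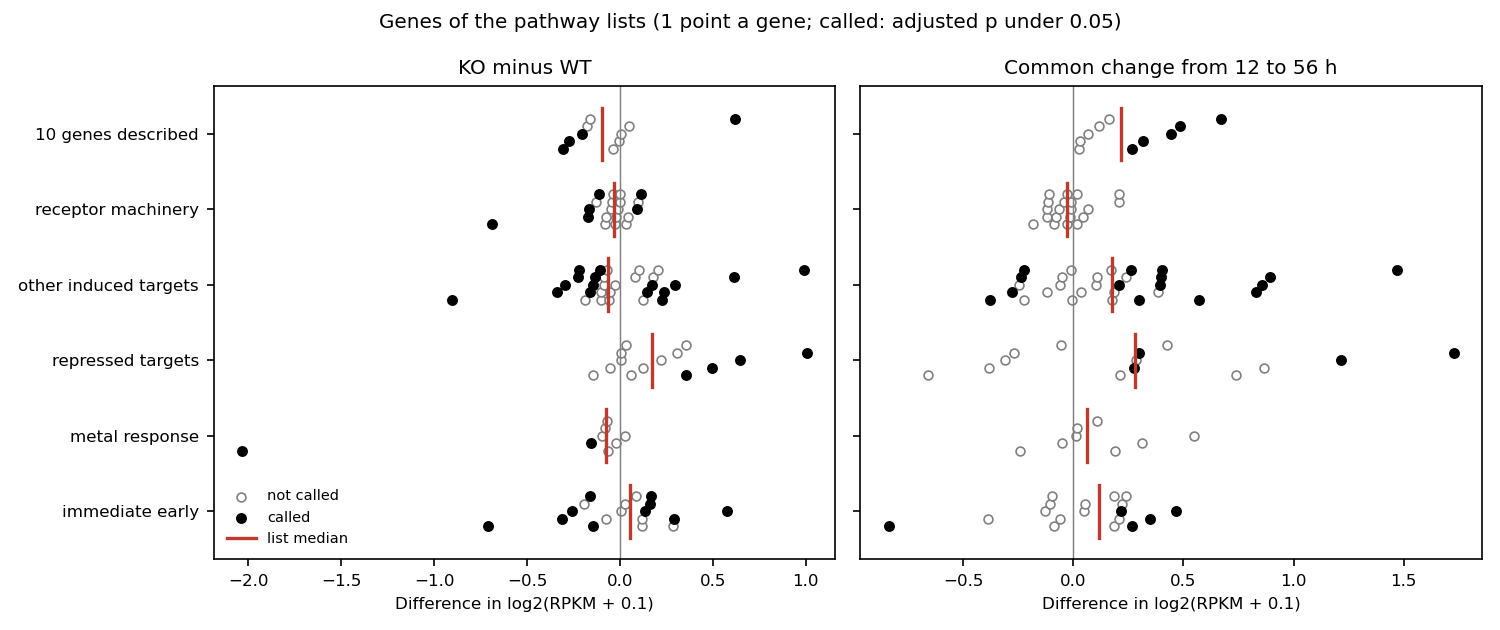
KO minus WT difference (left) and common change from 12 to 56 h (right) in log2(RPKM + 0.1), with 1 point per gene of each list, filled where the adjusted p was under 0.05, and a red bar at the list median. The 10 genes had a median of −0.10 log2 between genotypes and 0.22 log2 over the course.

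Of 9 further genes that answer to metals or oxidative stress, 8 passed the filter, and 0 were called higher and 2 lower in KO. Mt3, a metallothionein typical of neural cells, had means of 2.40 ± 2.06 and 0.452 ± 0.29 RPKM in WT and KO (SD, n = 12 each), a fold of 0.244. The 6 neural markers summed to medians of 17.6 and 7.36 RPKM in the same libraries, and the part of this in the Mt3 result was not tested. The zinc transporter gene Slc39a10 was lower at a fold of 0.898. None of the 8 was called for the course, in which Mt1 and Mt2 rose. The zinc sensor gene Mtf1 had an estimate of 0.01 ± 0.08 log2, and the zinc exporter gene Slc30a1 had −0.24 ± 0.10 log2 (adjusted p = 0.166).

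Of 18 immediate early genes, 5 were higher and 5 lower in KO. Fosl1 was higher by 1.49-fold, Myc by 1.22-fold, Cyr61 by 1.12-fold, Junb by 1.12-fold and Jun by 1.10-fold. Nr4a2 was lower at a fold of 0.610, Nr4a3 at 0.807, Nr4a1 at 0.837, Fos at 0.894 and Egr1 at 0.903. All 3 members of the Nr4a family of orphan receptors were thus called lower, 2 of them at low levels. Mean levels in WT and KO were 3.11 and 2.59 RPKM for Nr4a1 and 0.662 and 0.328 RPKM for Nr4a2. Those of Nr4a3, 0.176 and 0.123 RPKM, lay near the 0.1 added before the logarithm. Over the course 4 rose and 1 fell, with Atf3 at 1.38-fold, Jund at 1.27-fold, Junb at 1.20-fold, Jun at 1.16-fold and Egr3 at a fold of 0.559. Egr3 too was low, with means of 0.255 and 0.238 RPKM in WT and KO. None of the genes of these 5 lists was called for the 24 h rhythm.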

How the data were processed

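RNA-seq of 12 WT and 12 KO libraries was used. The authors trimmed the reads with Trimmomatic 0.36 and mapped them with STAR 2.5.4b to GRCm38 (versions from the submitters' processing notes). They kept alignments of mapping quality 10 or more, counted reads over exons of UCSC known canonical genes in HOMER, and deposited RPKM per gene. The use of strand is not given in the sources used here. Multiplied by length and library total, 100% of values fell on steps of 0.5 fragment (tolerance 0.025), and the 10 genes had at least 259.5 fragments in every library. No count model was used on these normalized values.

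Genes with a mean above 0.5 RPM in WT or KO were tested on log2(RPKM + 0.1) with limma 3.58.1 (R 4.3.3), so fold changes of low genes are understated. KO was set against WT over 12 time points each. The linear course and the cosine and sine of 24 h were fitted together with genotype, and interaction terms gave the differences. P-values were adjusted over all 15112 genes (Benjamini-Hochberg), with a threshold of 0.05. They measure the spread among libraries of different time points. The fits were tested on simulated data. The 10 genes and all lists were chosen with earlier results of these data known. From each of the 5 pathway lists, at most 10 called genes per comparison were named, by adjusted p, together with genes singled out after their values were seen (Nr3c2, Mtf1, Slc30a1 and markers). Promoter windows are RefSeq's, and those printed were chosen after the motif search. Descriptions used Python 3.11.15, pandas 2.3.3, numpy 2.4.6 and matplotlib 3.10.9.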

Additional observations from a re-analysis of the deposited data

How the results depend on the processing

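The 10 genes were refitted under other pseudocounts, filters, scalings and terms, and without each time point in turn. For KO against WT, 3 to 6 of the 10 were called, and 3113 to 4522 genes of all, where the full fit called 3918. Without a time point these were 3 to 4 of the 10 and 3113 to 3948 genes of all. Sgk1, Zbtb16 and Hsd11b1 kept their calls and directions in all 20 of these fits. Mt1 lost its call without the filter (adjusted p = 0.0638, in a range of 0.00132 to 0.0638 over the 8 settings). With the time point as a replicate block, Klf9 (adjusted p = 0.0110) and Mt2 (0.00978) were called too, and with the course as a covariate likewise (0.00347 and 0.0276). Mt2 was also called after quantile normalization (0.0147). Their ranges over the 8 settings were 0.00347 to 0.121 and 0.00978 to 0.163. Libraries of the same time point deviated together only in part (mean r 0.163, from −0.175 to 0.389, above 0.1 for 7 of 12), and 8 of 24 libraries correlated best with their own time point. For the course, 5 to 6 of the 10 were called without a time point and 795 to 1325 genes of all, where the full fit called 1258. With the means of WT and KO at each time point, which leave 12 values, 2 of the 10 and 656 genes were called, and Fkbp5 (adjusted p = 0.0676), Mt1 (0.0505) and Mt2 (0.0620) were lost. Klf9 lost its course between the first and the second 6 time points (0.0960). The genes called for the 24 h rhythm, 15, numbered 10 to 28 without a time point (28 without 44 h) and 3 with the means. The difference in course and the difference in rhythm each had 0 to 1 genes called without a time point, the 1 being called without 56 h and without 12 h. The lowest count for the course, 795, came without 40 h. None of the 10 genes changed direction in a comparison in which it was called. With 1 library per time point, values at single hours have no replicate check.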

Other observations

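The 6 endoderm markers, which include Afp, Apoa1 and Ttr, summed to between 78.1 and 1016 RPKM over the WT libraries and to between 81.8 and 1016 RPKM over the KO libraries, with medians of 245 and 149 RPKM. None of the 6 passed the test between genotypes or over the course. The r of the 10 genes with this sum ran from −0.44 for Sgk1 to −0.02 for Tsc22d3. The 6 neural markers summed to between 8.53 and 51.6 RPKM in WT and to between 5.10 and 17.1 RPKM in KO. Gfap, the intermediate filament gene of astrocytes, averaged 4.42 and 0.0415 RPKM in WT and KO (limma adjusted p = 6.03e-06).

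Chil1, the gene most like both metallothionein genes in its pattern over the libraries, averaged 28.4 and 12.4 RPKM in WT and KO.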
